A study of Mus musculus with 4 samples.

Results

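Genes of mitosis, the spindle and the kinetochore were examined in sorted splenic B cells of immunised control mice. The 53 genes were taken by name: mitotic kinases and cyclins, the spindle checkpoint, kinesins, kinetochore, condensin and cytokinesis genes and their transcription factors. Each name matched 1 of the 37646 genes counted. Live cells carrying YFP and B220, an isoform of CD45 found on B cells, were sorted from spleens of C57BL/6 mice of the genotype YFPstopF/+; Cg1Cre/+, in which a Cre recombinase expressed from the Ighg1 (Cg1) locus switches on a YFP reporter. The mice had received sheep red blood cells in 2 injections 20 days apart and were studied 10 days after the second. The labels call the cells germinal centre B cells, but YFP stays on in every descendant of a cell that once expressed Cre, so memory and plasma cells can also be in the sort. The 4 libraries, numbered 1 to 4, form 1 group, and the lymphoma samples of the design text were not analysed here. Whether the libraries come from separate animals is not stated in the labels, so p-values measure only the spread between these samples, which may be technical in part.

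In mitosis, cyclin-dependent kinase 1 bound to A- and B-type cyclins drives chromosome condensation and spindle assembly. The kinetochore, built on centromeric chromatin, ties each chromosome to microtubules, and the spindle checkpoint holds back the anaphase-promoting complex (APC/C) until every chromosome is attached. Germinal centre B cells are among the fastest dividing cells of a mammal. They divide chiefly in the dark zone of the germinal centre, and transcripts of late cell cycle genes accumulate in G2 and M phase and are low in resting lymphocytes.

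Libraries held 13777954 to 14629025 counts, of which the 53 genes took 0.469 to 0.744%, and no gene of the 53 fell below 201 counts in any library. Levels are TPM, counts scaled by gene length and library total, as mean ± SD over n = 4 libraries unless a library is named. Levels set against each other between libraries are CPM, counts scaled by library total alone, with edgeR's trimmed mean correction (TMM CPM), because TPM also moves with the mitochondrial share of the counts (18.1 to 23.3%) and the immunoglobulin share (2.35 to 5.48%). The defining B lineage genes (7 of 7) and the listed germinal centre genes (8 of 8) exceeded 1 TPM in every library, but 1 of the latter, Gpr183 (57.8 ± 15.9 TPM), is known to be turned down in germinal centre B cells and is no marker of them. Library 3 stands apart in the source of its cells, as it held 1307 counts of the Y-linked gene Ddx3y and the others at most 3, so sex and any other trait of that library cannot be told apart. The median level, the pair differences and the counts by library are therefore also given without it.

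All 53 genes exceeded 1 TPM in all 4 libraries, a level that 30.8% of all genes reached. Their median was 38.4 TPM, against 12.5 TPM for the 12475 genes with a mean of at least 1 CPM, and 47 of the 53 lay above that median. On the log2(TPM + 1) scale their median was 5.24, and 5.12 without library 3. The highest was Mki67, the Ki-67 protein that coats mitotic chromosomes and marks proliferating cells, and the lowest Anln, the actin-binding scaffold anillin of the cleavage furrow. Between them 7 genes stood at 100 TPM or more, 8 at 50 to 100, 24 at 20 to 50 and 14 under 20. In all 52 pairs of neighbours in this order the ranges over libraries overlapped. These ranges were not paired by library, and the genes moved largely together between libraries. The overlap therefore cannot show whether the order has steps. In bulk RNA, fewer dividing cells and less RNA per dividing cell cannot be told apart.

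**Figure D1:**
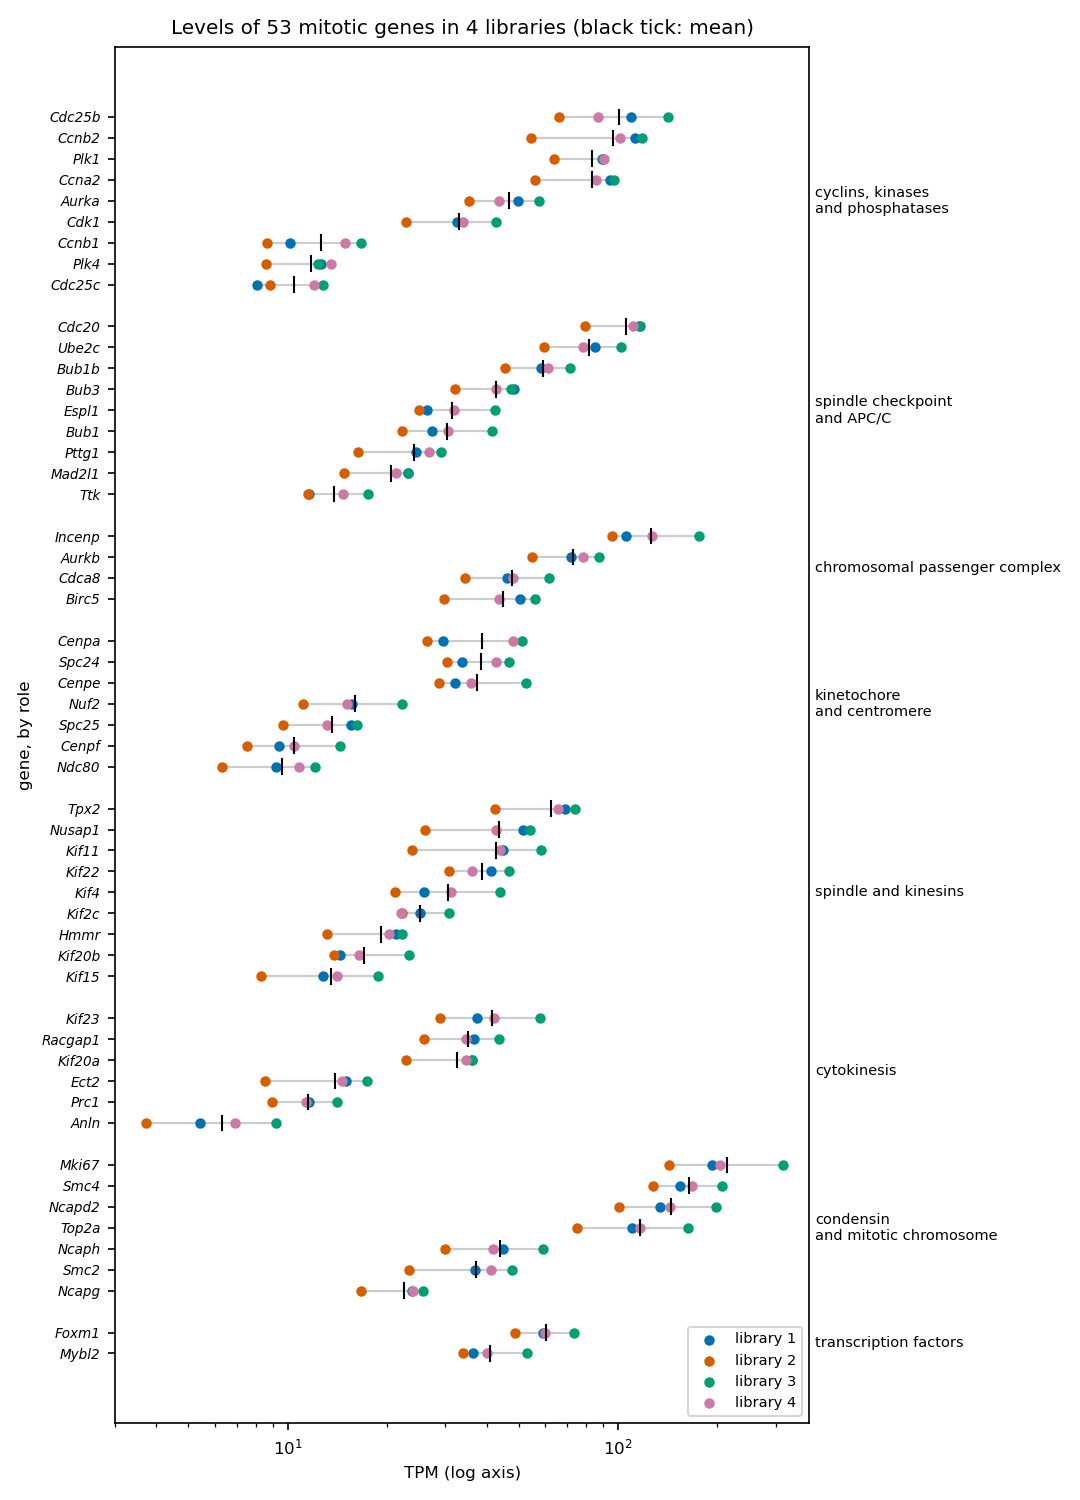
TPM of each of the 53 genes (horizontal, log axis) in the 4 libraries (coloured points), grouped by role, with a black tick at the mean. Mean levels run from 6.32 TPM for Anln to 214 TPM for Mki67, and the orange points of library 2 lie at the low end of most rows.

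The promoters of these genes shared a sequence that their selection did not use. Late cell cycle genes are known to be controlled through the cell cycle genes homology region (CHR), TTTGAA or its variant TTCGAA, which the MuvB core binds: with repressors in resting cells as the DREAM complex, and with B-MYB and FOXM1 in dividing cells. Many also carry CCAAT boxes, bound by NF-Y. RefSeq promoters (GRCm38.p6, from 250 bases before to 50 bases after the gene start) matched 44 of the 53 genes by symbol. Both strands were searched, TTCGAA being its own reverse complement and none of the motifs containing another. A CHR was found in 34 of the 44 promoters (77.3%), against 16.9% of the promoters of 9294 genes with a mean of at least 1 CPM and 21.7% of the 27025 genes of the whole table. CCAAT was found in 31 (70.5%), against 43.4%, and at least 2 copies of it in 20 (45.5%), against 17.3%. Promoters with a CHR as well as CCAAT numbered 29 (65.9%), against 7.19%. The E2F core GCGGGAA or GCGCGAA, typical of genes induced at the start of S phase, was found in 4 (9.09%), close to the 13.1% of expressed genes. A match is a description of letters, not evidence of binding.

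The CHR matches lay near the gene start. Of 51 matches, 72.5% began from 100 bases before the start onwards, against 37.4% of the matches in promoters of expressed genes. Sites of Ect2, Prc1 and Bub3, the 3 genes with 2 overlapping promoters, are counted among the 51 once for each start. The 25 bases just after the start held the beginning of a CHR in 15 of 44 genes (34.1%), against 1.26% of expressed genes. With only the 250 bases before the start, the share with a CHR was 40.9%, against 15.1%, so most of the excess lay at and just after the start. CCAAT matches were most frequent 50 to 75 bases before the start, in 34.1% of the genes, and those of expressed genes were most frequent in the same bin, at 11.03%.

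**Figure D2:**
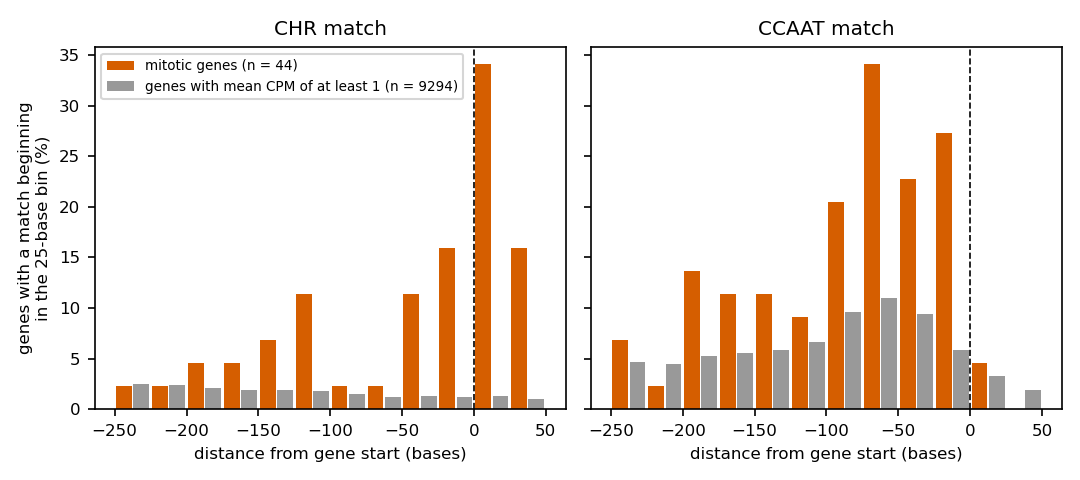
Share of genes (vertical, %) whose promoter has a CHR (left) or CCAAT (right) match beginning in each bin of 25 bases along the promoter (horizontal, distance from the gene start), for 44 mitotic genes (orange) and 9294 expressed genes (grey). The CHR peak of the mitotic genes is the bin just after the start at 34.1%, where expressed genes are at 1.26%.

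Of 16 genes considered for display (those compared in pairs below, with Cdc20, Birc5, Mki67 and Top2a), 5 had a matched promoter with a CHR before the start. The others can include genes for which no promoter was matched. Those 5 are shown from 200 bases before the start to the last base before it, 5′ to 3′ on the gene's strand, with CHR and CCAAT matches on either strand in capitals.
Cdc20 (chr4:118437344-118437543, - strand): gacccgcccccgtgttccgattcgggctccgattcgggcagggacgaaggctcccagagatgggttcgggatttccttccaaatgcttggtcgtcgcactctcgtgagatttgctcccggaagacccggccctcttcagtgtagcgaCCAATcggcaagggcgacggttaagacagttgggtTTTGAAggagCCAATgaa
Ccnb2 (chr9:70421555-70421754, - strand): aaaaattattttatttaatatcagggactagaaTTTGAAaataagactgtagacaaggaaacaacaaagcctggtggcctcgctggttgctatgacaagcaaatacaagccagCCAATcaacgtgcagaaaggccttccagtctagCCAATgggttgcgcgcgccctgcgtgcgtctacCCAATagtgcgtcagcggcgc
Mki67 (chr7:135716380-135716579, - strand): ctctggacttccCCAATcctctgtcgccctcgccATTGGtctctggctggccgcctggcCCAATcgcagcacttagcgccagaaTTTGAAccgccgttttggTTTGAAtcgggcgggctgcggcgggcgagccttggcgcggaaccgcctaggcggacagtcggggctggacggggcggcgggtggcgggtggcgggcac
Top2a (chr11:99024190-99024389, - strand): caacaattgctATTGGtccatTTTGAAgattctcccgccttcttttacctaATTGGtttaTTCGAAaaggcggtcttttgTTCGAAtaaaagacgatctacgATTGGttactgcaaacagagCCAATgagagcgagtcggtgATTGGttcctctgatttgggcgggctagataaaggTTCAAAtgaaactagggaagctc
Bub1b (chr2:118598011-118598210, + strand): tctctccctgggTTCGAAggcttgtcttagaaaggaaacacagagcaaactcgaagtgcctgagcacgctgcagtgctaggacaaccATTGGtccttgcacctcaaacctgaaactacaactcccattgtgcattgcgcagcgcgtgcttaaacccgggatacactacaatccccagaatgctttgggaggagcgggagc

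Cdc20 has its CHR at position -18 (counted back from the start), between CCAAT boxes at -53 and -8. Top2a shows 4 CHR matches, and Bub1b has its CHR before the start at -188. Bub1b and Ccnb2 also have a CHR after the start, at base 41 and base 5 of the gene, outside the stretch shown. In 27 further genes a CHR began within 50 bases of the start. Of the 10 of these with the highest mean TPM, 9 are shown to display how the flanks differ, each as 26 bases with the CHR in capitals and 10 bases on either side, turned so that the CHR reads forward.
Cdc25b (chr2:131186945-131186970, + strand): gctgttatttTTCGAAtatataagga
Plk1 (chr7:122159455-122159480, + strand): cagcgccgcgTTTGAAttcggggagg
Ube2c (chr2:164769890-164769915, - strand): gccgcccgcgTTTGAAttgcaaccct
Aurka (chr2:172370523-172370548, - strand): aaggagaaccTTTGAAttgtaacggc
Kif11 (chr19:37376353-37376378, - strand): gcgcctcaatTTTGAAaaatggagac
Bub3 (chr7:131560317-131560342, - strand): attggctgatTTTGAAcgccaacggc
Kif23 (chr9:61946782-61946807, - strand): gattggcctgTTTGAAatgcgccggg
Cenpa (chr5:30666892-30666917, + strand): cgggtgatttTTTGAActgctggcga
Kif22 (chr7:127042422-127042447, + strand): gcttctctctTTTGAAttaccggggc

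Cdc25b carries the variant TTCGAA at position 8, counted from 1 at the first base of the gene, and the others TTTGAA, from position -43 in Bub3 to 33 in Aurka. Counted from the other start of Bub3, the same match lies at -167.

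Among cyclins, kinases and phosphatases the highest was Cdc25b (chr2:131186949-131198497, mm10), a phosphatase that activates CDK1, at 109, 66.3, 141 and 86.7 TPM in libraries 1 to 4. Its relative Cdc25c was the lowest of the role with 255, 285, 370 and 374 counts in libraries 1 to 4 (8.05 to 12.8 TPM), so that Cdc25b exceeded it 7.23- to 13.6-fold within a library. On the log2(TPM + 1) scale, on which gene pairs are compared below, that difference was 3.13 ± 0.43. Cdc25b was lowest in library 2 and Cdc25c in library 1.

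The B-type cyclins also differed widely in TPM. Ccnb2 (chr9:70407692-70421547) stood at 113, 54.3, 118 and 101 TPM in libraries 1 to 4, lowest in library 2. Ccnb1 (chr13:100778650-100786570), which targets CDK1 to the nucleus and spindle, stood at 10.2, 8.67, 16.6 and 14.9 TPM, low in libraries 1 and 2. The difference Ccnb1 minus Ccnb2 was -2.83 ± 0.36 and ran from -3.35 in library 1 to -2.52 in library 2. It depends on the gene lengths used: without length it was -1.43, against 2.79 for Cdc25b minus Cdc25c. Ccnb1 is measured with less certainty, since 23.4% of the 50-base words in its transcripts recur in transcripts of other genes, chiefly its pseudogene Ccnb1-ps, and how multiply matching reads were counted is not given in the sources used here. Ccna2, the A-type cyclin of S phase and G2, stood at 83.4 ± 19.0 TPM and their partner Cdk1 at 33.0 ± 8.10.

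Kinases of mitotic entry and the spindle poles covered a similar range. Plk1, which promotes mitotic entry, centrosome maturation and cytokinesis, stood at 89.6, 63.8, 89.7 and 90.5 TPM. In TPM, libraries 1, 3 and 4 were nearly equal and library 2 lay apart below them. The values in TMM CPM were more evenly spread, at 90.3, 71.4, 78.7 and 83.0 in libraries 1 to 4. Plk4, the kinase of centriole duplication, was far lower at 11.8 ± 2.15. Aurka, the Aurora kinase of the spindle poles, stood at 49.8, 35.5, 57.7 and 43.7 TPM and was lower than Aurkb in all 4 libraries, by 0.64 ± 0.13.

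Spindle checkpoint and APC/C genes were led by Cdc20 (chr4:118432901-118437352), the APC/C activator that the checkpoint restrains. It stood at 116, 79.6, 116 and 111 TPM, with library 2 alone low on that scale. In TMM CPM it stood at 99.5, 75.6, 86.1 and 86.3, with library 1 high and library 2 low. Ube2c, the ubiquitin-conjugating enzyme of the APC/C, stood at 81.4 ± 17.6, and its substrate securin, Pttg1, at 24.1 ± 5.56 beside separase, Espl1, at 31.4 ± 7.92. The checkpoint protein gene Bub1b (BUBR1) was at 58.3, 45.6, 71.5 and 61.4 TPM and its relative Bub1 at 27.4, 22.2, 41.6 and 30.5. Bub1b minus Bub1 was 0.96 ± 0.13 and positive in 4 of 4 libraries. Bub3 was at 42.7 ± 7.53 and Mad2l1 at 20.6 ± 3.96. The kinase gene Ttk (MPS1), which starts checkpoint signalling, was the lowest at 11.6, 11.5, 17.5 and 14.7 TPM, low in libraries 1 and 2.

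The chromosomal passenger complex corrects faulty attachments and later organises cytokinesis. Its scaffold gene Incenp (chr19:9872296-9899551) was the highest of the 4 subunits at 106, 96.0, 176 and 126 TPM, with library 3 high. Its kinase Aurkb followed at 72.2, 54.9, 87.3 and 78.5 TPM and Cdca8 (borealin) at 47.6 ± 11.2. Birc5 (survivin) was the lowest at 50.5, 29.7, 55.9 and 43.7 TPM, so the levels within the complex spanned 45.0 to 126 TPM.

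Kinetochore genes were the lowest role, with a median of 16.01 TPM. Cenpa, the histone H3 variant that defines the centromere, led at 29.5, 26.4, 51.2 and 48.1 TPM, with libraries 1 and 2 below libraries 3 and 4. The NDC80 complex, the microtubule coupler, has 4 subunits in equal number, and the TPM of their transcripts differed. Spc24, at its centromere end, stood at 33.7, 30.4, 46.8 and 42.6 TPM. Ndc80, at its microtubule end, stood at 9.23, 6.34, 12.1 and 10.8 TPM, 3.65- to 4.79-fold lower within a library (Spc24 minus Ndc80 1.90 ± 0.14). Nuf2 at 16.01 ± 4.56 and Spc25 at 13.6 ± 2.97 were closer to Ndc80 in TPM. These gaps depend on the gene lengths used: without length, Spc24 minus Ndc80 was 0.66. In TMM CPM, Nuf2 stood at 45.5, 35.8, 56.0 and 40.0 and Spc24 at 39.8, 39.7, 48.0 and 45.7 in libraries 1 to 4. The large corona proteins Cenpe (37.3 ± 10.6) and Cenpf (10.4 ± 2.87) also differed.

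Spindle genes were led by Tpx2, a microtubule nucleator that activates Aurora A, at 69.2, 42.3, 74.0 and 65.8 TPM. Kif11 (chr19:37376403-37421859), the kinesin-5 that pushes spindle poles apart, stood at 44.8, 23.8, 58.5 and 44.0 TPM, low in library 2 and high in library 3. Kif15, which shares that task, was the lowest of the role at 12.8, 8.30, 18.8 and 14.1. The chromokinesins Kif22 and Kif4 were at 38.7 ± 6.97 and 30.5 ± 9.77, and the microtubule depolymerase Kif2c at 25.1 ± 4.11.

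Cytokinesis genes were led by Kif23, the kinesin of centralspindlin, at 37.5, 28.8, 58.0 and 42.3 TPM, with its partner Racgap1 at 35.2 ± 7.36. The RhoA activator Ect2 stood at 13.9 ± 3.75 and the midzone bundler Prc1 at 11.5 ± 2.11. Anln stood at 5.41, 3.71, 9.20 and 6.93 TPM, lowest in library 2 and highest in library 3. Kif20a was at 32.4 ± 6.49, but 25.2% of its 50-base words recur in transcripts of Cdc23, so its level is less certain.

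Condensin and chromosome genes were the highest role, with a median of 116 TPM. Mki67 (chr7:135689784-135716361) stood at 193, 143, 317 and 204 TPM and topoisomerase Top2a, which untangles sister DNA, at 110, 74.9, 163 and 116. For both, library 2 was lowest and library 3 highest. Subunits of condensin I, which compacts chromosomes, ranged from Smc4 (164 ± 32.8) and Ncapd2 (144 ± 40.3) over Ncaph (44.1 ± 12.1) and Smc2 (37.3 ± 10.3) to Ncapg at 23.8, 16.6, 25.7 and 23.99 TPM. Smc2 and Smc4 form the ATPase pair of condensin, and Smc4 was above Smc2 in each library, at 154, 127, 206 and 168 TPM against 36.8, 23.3, 47.6 and 41.4.

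The transcription factors that act on CHR promoters were themselves expressed. Foxm1 stood at 59.4, 48.7, 73.7 and 60.3 TPM and Mybl2 (B-MYB) at 36.5, 33.9, 53.2 and 40.2, highest in library 3 for both. Mybl2 minus Foxm1 was -0.56 ± 0.10. 19.3% of the 50-base words of Mybl2 recur in other transcripts, chiefly Gm3320. Of the 53 genes, 10 shared at least 10% of their words with other genes and 42 less than 5%.

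Of the 6 pairs compared (Ccnb1 and Ccnb2, Aurka and Aurkb, Spc24 and Ndc80, Cdc25b and Cdc25c, Bub1b and Bub1, Mybl2 and Foxm1), each had 1 direction in 4 of 4 libraries and a mean difference larger than its SD. An exact permutation test that flips the sign of each library's difference, two-sided, gave p = 0.125 for each pair, the smallest p that 4 libraries allow (adjusted p = 0.125 over the 6 pairs), so this test could not pass 0.05. Without library 3 the differences, in that order, were -2.85, -0.66, 1.91, 3.04, 1.02 and -0.59. TPM divides by the union of a gene's exons, which understates genes with long alternative exons.

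Between libraries, the 53 genes moved largely together. Library 2 had the lowest TMM CPM for 45 of 53 genes, against 23.6% of genes with a mean of at least 1 CPM, and the highest for 0 of 53, against 26.5%. Library 3 had the highest for 38 of 53, against 30.9%, and the lowest for 0, against 23.4%. Every one of the 53 was higher in library 3 than in library 2, against 51.0% of genes, with a median ratio of 1.37-fold and log2 ratios from 0.12 for Kif2c to 0.94 for Kif11. Library 1 was highest for the other 15 genes, against 30.0% of genes, and library 4 for 0, against 12.6%. The genes were chosen as 1 functional group and share the libraries' depth and cells, so they are not 53 independent observations.

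The median deviation of the 53 genes from their own means, on the log2(TMM CPM + 1) scale, was 0.06, -0.25, 0.20 and -0.02 in libraries 1 to 4. The same median over genes with a mean of at least 1 CPM was 0.02, 0.01, 0.02 and -0.04. With library 3 left out, the median of the 53 genes was 0.14, -0.18 and 0.04 in libraries 1, 2 and 4. Library 2 was then lowest for 45 of 53 genes, against 30.2% of genes with a mean of at least 1 CPM, and library 1 highest for 35, against 38.5%. With library 2 left out, library 4 was lowest for 32, against 37.6%, and library 3 highest for 38, against 39.6%. Scaling by size factors, by total count, or without mitochondrial and immunoglobulin counts left library 2 lowest for 45, 49 and 47 genes and library 3 highest for 36, 35 and 27. The shares over all genes under these scalings are not given here. Those for TMM CPM do not carry over, because a change of scaling moves all genes of a library together.

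**Figure D3:**
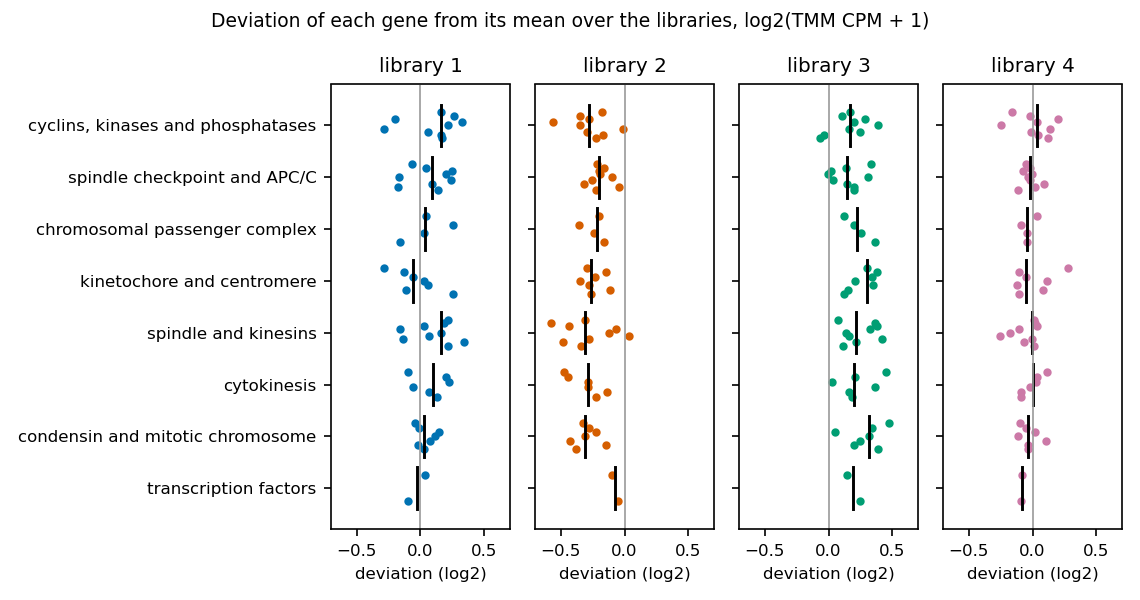
Deviation of each of the 53 genes from its mean over the 4 libraries, log2(TMM CPM + 1) (horizontal), by role (vertical) and library (panels), with a black line at the median of each role. In library 2 every role has its median below 0 and in library 3 above 0.

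Library 3 was highest for more genes than any other library in each of the 8 roles: for 6 of 7 kinetochore genes, 6 of 7 condensin and chromosome genes and 5 of 6 cytokinesis genes, and for 5 of 9 cyclins, kinases and phosphatases and 5 of 9 spindle genes, of which library 1 was highest for the remaining 4 each. Among genes with a mean of at least 1 CPM, library 3 was highest for 30.9% and library 1 for 30.0%. Differences between roles were not tested. The 15 genes highest in library 1 were Cdc20, Ccnb2, Plk1, Ccna2, Tpx2, Birc5, Nusap1, Bub3, Kif22, Kif20a, Ncapg, Mad2l1, Hmmr, Spc25 and Plk4. Their margin over library 3 was smallest for Kif22 (92.9 and 91.7 TMM CPM) and, as a ratio, largest for Plk4 (39.7 and 33.7), and it was not tested. The 6 genes lowest in library 1 were Incenp, Mybl2, Espl1, Kif20b, Ttk and Cdc25c. The remaining genes outside the common pattern were Kif22 and Kif2c, which were lowest in library 4.

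Gene by gene, no member passed a test of variation between libraries. A test built on edgeR's quasi-likelihood fit set each gene's spread against that of genes of the same level. It was fitted to all 11982 genes that passed the filter on low counts. At an adjusted p under 0.05 it called 0 of 53, against 0.00835% of all genes. All 53 passed that filter. At an unadjusted p under 0.05 the test named 1 of 53, Kif11, against 4.97% of all genes. Kif11 had an adjusted p of 0.990 in this edgeR-based test. The robust form of the test called 0 of 53 (0.526% of all genes), and 2 of 53 at an unadjusted p under 0.05 (6.28% of all genes). A like test built on the limma-voom fit called 0 (0.0% of all genes), and 0 of 53 at an unadjusted p under 0.05 (5.03% of all genes). DESeq2 marked 0 as dispersion outliers (1.33% of all genes). The test takes genes singly and does not address the shared direction.

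The highest library exceeded the lowest by 1.19-fold for Foxm1 to 1.94-fold for Anln, with a median of 1.44-fold over the 53 genes and 1.45-fold over genes with a mean of at least 1 CPM. No gene of the 53 reached 2-fold, against 20.6% of genes, though 3 did by plain CPM. The biological coefficient of variation, edgeR's estimate of the spread between libraries beyond counting error, had a median of 17.2% over the 53 genes and 19.4% over all tested genes. The largest were those of Anln (23.8%), Kif11 (21.4%) and Ccnb1 (21.3%), and the smallest those of Foxm1 (14.1%), Bub1b (14.3%) and Aurkb (14.7%). Spread depends on level, and the 53 genes are more abundant than most.

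**Figure D4:**
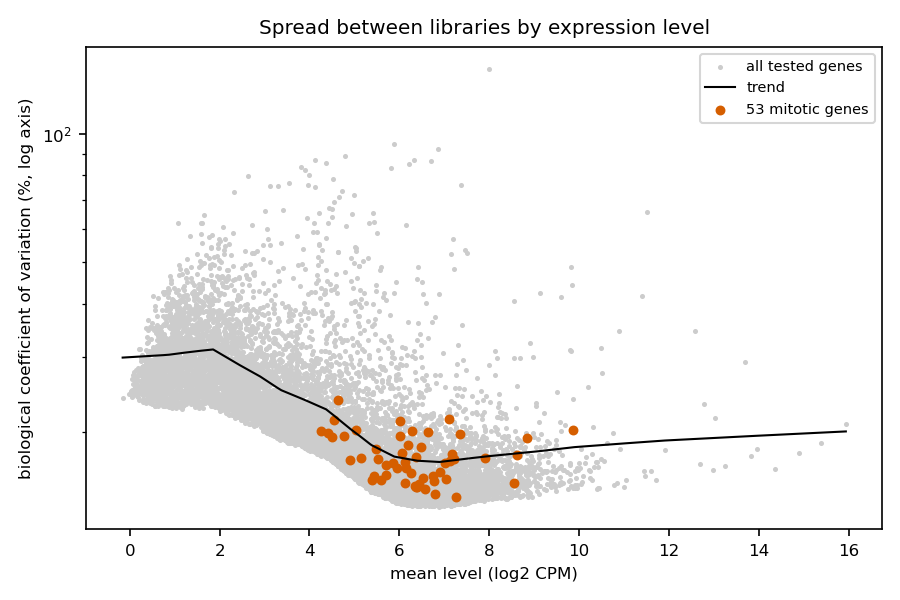
Biological coefficient of variation between libraries (vertical, %, log axis) against mean level (horizontal, log2 CPM) for all tested genes (grey) and the 53 mitotic genes (orange), with edgeR's trend as a line. The mitotic genes lie along the trend, between 14.1% and 23.8%.

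Further genes of the cell cycle, from lists of known complexes, were set beside the 53. All 98 further genes exceeded 1 TPM in every library. The S phase list shared the library pattern, with median deviations of 0.04, -0.25, 0.29 and -0.06 in libraries 1 to 4. Library 2 was lowest for 12 of its 14 genes, against 23.6% of genes with a mean of at least 1 CPM. Library 3 was highest for 12, against 30.9%. The list was led by the helicase gene Mcm5 (226 ± 56.5 TPM), with Gins2 lowest (11.1 ± 2.62). The outer kinetochore list of the Mis12, KNL1 and SKA complexes stood at -0.22 in library 2 and 0.24 in library 3, from Pmf1 (47.7 ± 11.5) to Nsl1 (6.55 ± 2.13). Condensin II, from Ncaph2 (109 ± 26.2) to Ncapg2 (14.5 ± 3.98), stood at -0.23 and 0.29.

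The other lists had smaller median deviations in libraries 2 and 3. Cohesin, which holds sister chromatids together from S phase on, stood at -0.15 in library 2 and 0.12 in library 3, from Rad21 (122 ± 32.03) to Sgo1 (15.7 ± 3.17). The constitutive centromere network, from Cenpx (78.8 ± 10.7) to Cenpp (3.59 ± 0.51), stood at -0.11 and 0.16. Subunits of the APC/C with its activator Fzr1, from Anapc5 (119 ± 21.5) to Anapc10 (4.95 ± 0.44), stood at -0.03 and 0.10. Centriole and spindle pole genes, led by Tacc3 (62.6 ± 21.6) and lowest at Sass6 (3.64 ± 0.81), stood at -0.10 and 0.18, and controls of mitotic entry and exit, from Cks1b (97.6 ± 18.8) to Mastl (5.10 ± 0.97), at -0.09 and 0.16. MuvB and DREAM genes, the regulators of CHR promoters, ran from E2f4 (171 ± 40.5) to Lin9 (5.05 ± 0.48). They shared the low library 2 (-0.12), which was lowest for 6 of 10 genes, against 23.6% of genes with a mean of at least 1 CPM. But they had their highest median in library 1 (0.16) and stood at -0.02 in library 3. Differences between these lists were not tested. The edgeR-based variation test called 0 of the 98 genes at an adjusted p under 0.05, against 0.00835% of all genes. At an unadjusted p under 0.05 it named Mis12, Mybl1 and Cdt1 among the 98, against 4.97% of all genes.

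Markers of other cells were read beside the pattern. The resting B list (7 of 7 genes above 1 TPM in every library) summed to 1614, 2884, 2091 and 2189 TPM in libraries 1 to 4. It was thus highest in library 2, where the 53 genes were lowest. Klf2, a factor of quiescent lymphocytes, stood at 1058 ± 407 TPM. Its part in the pattern was not tested. The T cell list (8 of 8 above 1 TPM) summed to 454, 202, 174 and 380 TPM and the NK list (4 of 4) to 64.4, 30.8, 28.1 and 48.8. The erythroid list (4 of 8 measured) summed to 106, 102, 98.5 and 271, and the myeloid list (6 of 8) to 263, 137, 178 and 286. In library 3, where the 53 genes were highest, the T cell and NK sums were the lowest of the 4 libraries. The erythroid sum was lowest there by little, and the myeloid sum was lowest in library 2. In TMM CPM the median deviations in library 3 were -0.77, -0.58, -0.42 and -0.42 for the T cell, NK, erythroid and myeloid lists, each the lowest of the 4 libraries. The erythroblast genes Klf1 (0.60 ± 0.64 TPM) and Epor (0.44 ± 0.31) were near 0. Germinal centre genes summed to 832 to 1240 TPM, lowest in library 2 and highest in library 3, although their median deviation in TMM CPM was highest in library 1 (0.34). Plasma cell genes summed to 791 TPM in library 3 against 1625 to 1841 in the others.

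**Figure D5:**
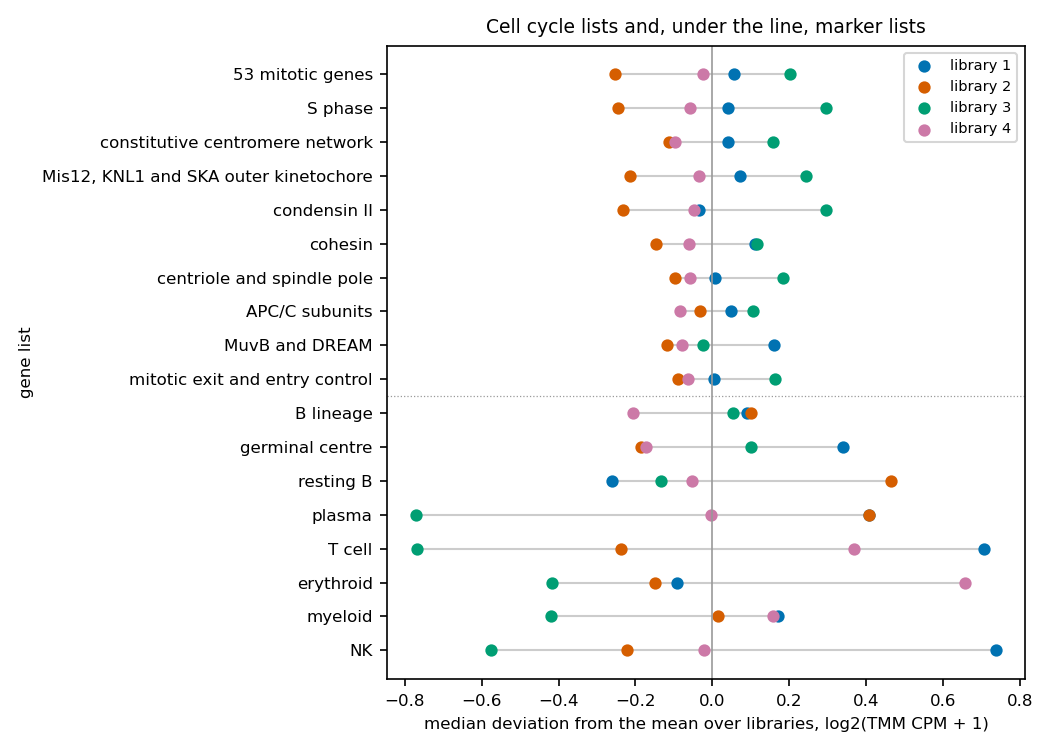
Median deviation of each gene list from its genes' means over the libraries, log2(TMM CPM + 1) (horizontal), for the 53 mitotic genes, 9 further cell cycle lists and, under the dotted line, 8 marker lists (vertical), with libraries as coloured points. Library 3 is highest and library 2 lowest for the mitotic and S phase lists, whereas library 2 is highest for the resting B list.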

How the data were processed

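Poly(A) RNA of 4 libraries was read on DNBseq (single 50 nt reads, 20 M planned). The submitters' processing notes name the mm10 build, STAR 2.5.2b, featureCounts 1.6.0 and FastQC. Which annotation release and strand setting were used, and how multiply matching reads were counted, is not given in the sources used here. Each library has 1 deposited table of raw read counts per gene, per the file headers.

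Gene lengths (union of exons) and positions came from GENCODE M21 (GRCm38), which matched 37536 of 37646 identifiers, and TPM was computed with them. Comparisons between libraries used TMM-scaled CPM. The test of variation was computed from a fit of edgeR 4.0.16 (filterByExpr, TMM, intercept-only glmQLFit, legacy = FALSE). It referred the quasi-dispersion over its trend to the upper tail of F, with Benjamini-Hochberg at 0.05 over all tested genes. The limma 3.58.1 alternative did the same with the residual variance over its prior. DESeq2 1.42.0 was the other alternative, and all were run in R 4.3.3. The script was tested on simulated counts. Pairs of genes were compared by exact sign-flip permutation in Python 3.11.15. Promoters came from RefSeq (GRCm38.p6) and 50-base words from GENCODE transcripts. A planned search of protein sequences was not made, and proteins were not used here.

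The members and lists were chosen with earlier results of these data known. Named in full by rule were the 6 pairs, the highest and lowest of each role, genes with an unadjusted p under 0.05 and the 3 largest and 3 smallest coefficients of variation. Counts of genes highest or lowest in a library under other scalings, CHR positions, short CHR sites and other genes named were chosen after their values were seen. 1 promoter site and 1 marker gene are not reported here.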

Additional observations from a re-analysis of the deposited data

Results flagged for a closer look

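In 4 values of the 85 examined, 1 library lay far from the other 3, by a gap that exceeded Dixon's 95% critical value for 4 samples (which chance meets in about 1 of 20 groups). Finding 4 of 85 is close to that rate, so the values are listed only as a description. For 3 of the 53 mitotic genes it was library 2, below the others: Cdc20 at 79.6 TPM against 111 to 116, Plk1 at 63.8 TPM against 89.6 to 90.5 and Kif20a at 22.8 TPM against 34.6 to 36.2. The erythroid marker sum was far from the others in library 4, at 271 TPM against 98.5 to 106. The share of the erythroid RNA in the mitotic levels of library 4 was not tested, and the median deviation of the mitotic genes there was -0.02.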

How the results depend on the processing

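The 6 pair differences kept their direction with pseudocount 0.1, without gene length and with each library left out, but without gene length Ccnb1 minus Ccnb2 went from -2.83 to -1.43, Spc24 minus Ndc80 from 1.90 to 0.66 and Mybl2 minus Foxm1 from -0.56 to -0.88. The number of the 53 genes passing the variation test was 0 under DESeq2 size factors, other filters, the robust option and other tools. It was also 0 with each library left out. The number at an unadjusted p under 0.05, 1 in the report, was 0 with limma-voom (5.03% of all genes) and 2 with the robust option (6.28%). It was 0 with a mean CPM filter (620 of 12475 genes) and 4 without a filter (1466 of 31026 genes). Without library 1, 2, 3 and 4 in turn it was 4, 0, 3 and 1. Over all genes the counts were then 601 of 12234, 557 of 12204, 606 of 12241 and 597 of 12071. The median level, 5.24 on the log2(TPM + 1) scale, was 6.33 without mitochondrial and immunoglobulin genes in the total. The median coefficient of variation was 15.4 to 19.5% with a library left out, highest without library 4, and the cause was not tested. No paired analysis was possible because the samples form 1 group. Leaving out a library left 3. The 53 genes had at least 201 counts in each library, whereas Klf1, Epor and Cenpp had 23, 22 and 231 counts over all libraries, so their levels are less precise.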
